A study of Drosophila melanogaster with 9 samples.

Results

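The genes described here encode subunits of the proteasome. They were chosen by name: a gene was included where its name in the counts table was Prosalpha, Prosbeta, Rpn or Rpt with a digit after it, or Pros with a digit directly after it. Of the 13937 genes in the table, 40 met this rule. By their current symbols, 27 encode subunits of the proteasome and 13 are duplicate copies of such subunits. The 27 comprise 6 genes of the alpha ring, 6 of the beta ring, 5 ATPases of the base, 3 other base subunits and 7 subunits of the lid.

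RNA-Seq had been done on S2 cells, a cultured Drosophila cell line of hemocyte character, that were kept without serum for 16 h. The cells then received 100 nM DILP2, 100 nM DILP5 or the solvent of the peptides (control) for 1 h, with 3 libraries per condition, named A, B and C. DILP2 and DILP5 are Drosophila insulin-like peptides, and the question was whether these related ligands induce similar or different transcripts. All groups shared the serum depletion and the same cell line, so the comparisons concern cells kept without serum. The labels do not say that the libraries came from separate cultures, and the p-values measure only the spread between these libraries.

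The proteasome is the protease complex that degrades ubiquitin-tagged proteins. Its 20S core is a barrel with outer rings of alpha subunits, which control entry, and inner rings of beta subunits, of which Prosbeta1, Prosbeta2 and Prosbeta5 carry the proteolytic sites. The 19S particle caps the core. Its base holds the ring of Rpt ATPases that unfold substrates, and its lid holds Rpn11, the enzyme that removes ubiquitin chains. In flies, the transcription factor encoded by cnc raises proteasome genes when the proteasome is impaired.

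Libraries held from 28365854 to 38557706 counts on genes. Levels are given as CPM, counts divided by the TMM-scaled total of the library, and levels of different genes are compared only per kb of exon. The 6 hemocyte markers summed to between 1300 and 1495 CPM with DILP2, between 1271 and 1457 CPM with DILP5 and between 1290 and 1463 CPM in control. Most of this came from Cg25C, vkg and srp, with at least 525.8, 357.4 and 293.6 CPM. Pxn reached at most 45.4 CPM and Hml at most 4.57 CPM, and NimC1, which marks phagocytic hemocytes, reached at most 0.208 CPM. The neuronal genes elav and brp were also present, at up to 72.9 and 144 CPM, while n-syb reached at most 0.14 CPM. Among 5 testis markers, ocn and Mst84Da had no counts in any library, dj and can had at most 2 counts, and bam had from 0.651 to 1.27 CPM. All replicates of a condition differed by more than counting noise.

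The 27 subunits of the naming rule were abundant and similar in level. In control, the 27 genes lay between 79.9 ± 3.01 CPM per kb for Rpn9, a lid subunit, and 212 ± 7.2 CPM per kb for Pros25, the alpha2 subunit (SD, n = 3 libraries). The highest level was thus 2.66 times the lowest. The median of the 27 was 132 CPM per kb, against 15.2 CPM per kb over the 8608 genes tested that had an exonic length. Each of the 27 stood between percentile 89.5 and percentile 96.9 of those genes. With DILP2 the range was from 84.1 CPM per kb for Rpn9 to 227 CPM per kb for Pros28.1, the alpha4 subunit. With DILP5 it was from 85.1 CPM per kb for Rpn9 to 226 CPM per kb for Pros28.1.

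Levels differed by role within this narrow range. In control, the median level was 162 CPM per kb for the alpha ring, 133 CPM per kb for the beta ring, 122 CPM per kb for the ATPases, 123 CPM per kb for the other base subunits and 101 CPM per kb for the lid. The coefficient of variation between genes in control was 9.97% for the 6 beta genes and 23.2% for the 6 alpha genes. With CG17331, the Prosbeta4 gene that the naming rule left out, at 85.6 CPM per kb, it was 18.4% for the beta ring. The alpha values lack Prosalpha1, which the rule also left out and which had 474 CPM per kb in control. Its counts nearly equal those of its copy CG30382, so that level is uncertain. Over the 27 genes this coefficient was 23.4% with DILP2, 23.7% with DILP5 and 23.5% in control. The spread between replicates of a gene was smaller, with a median of 2.06% with DILP2, 2.16% with DILP5 and 3.56% in control.

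Ordered by control level, most neighbours could not be separated. Of the 26 neighbouring pairs, 23 had overlapping control values. The 3 gaps lay below Pros28.1 (208 CPM per kb), below Rpt3 (119 CPM per kb) and below Pros54, the Rpn10 subunit (99.2 CPM per kb). Among the 27, Pros25 and Pros28.1 thus stood above all others, and Rpn9 stood below them. Prosalpha1, which is outside the 27, had the higher but uncertain level given above. The 6 genes of the lid other than Rpn7 lay at rank 16 or lower, while Rpn7 held rank 9. Exonic lengths came from a newer annotation than the counts, and genes with differing lengths there would shift in this order.

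**Figure D1:**
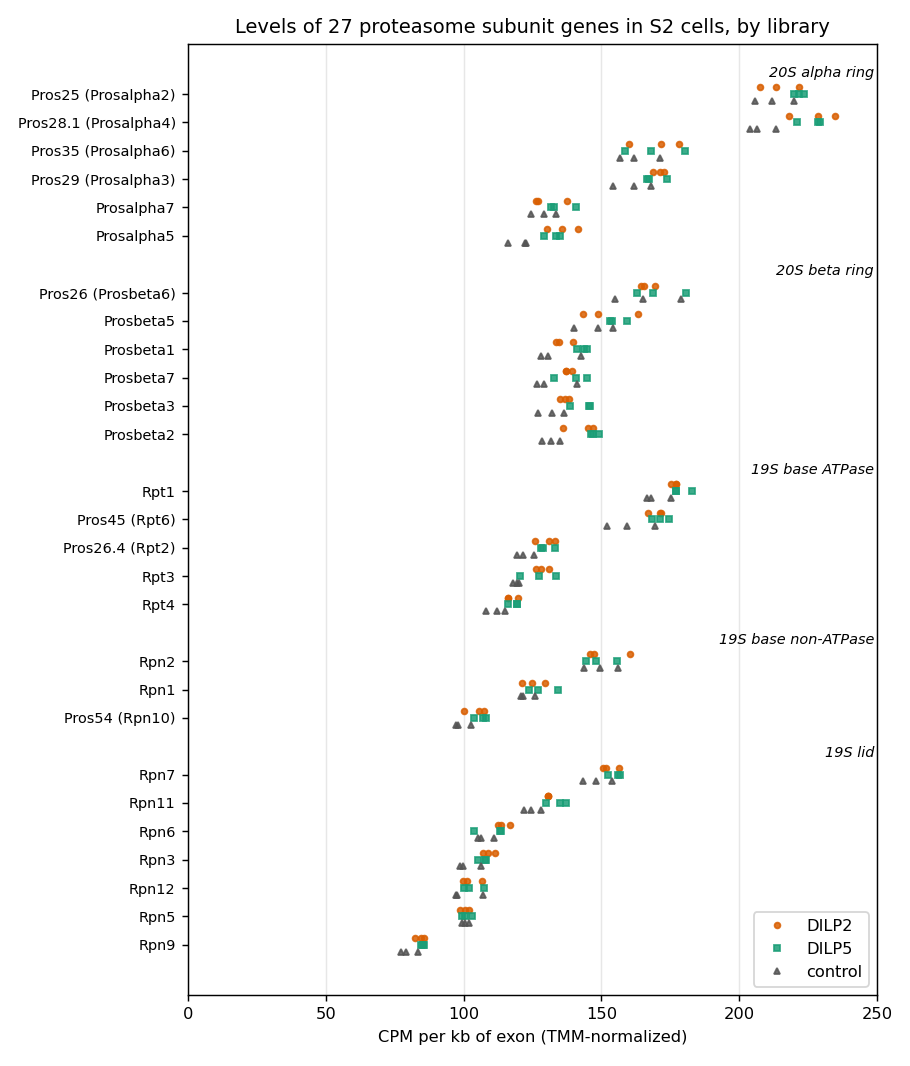
Level of each of the 27 subunit genes in every library, as CPM per kb of exon on a linear axis from 0, grouped by place in the proteasome, with DILP2 as circles, DILP5 as squares and control as triangles. The 27 genes lie within a 2.66-fold range in control, and the symbols of the 3 conditions lie close together beside the distance between Pros25 or Pros28.1 and Rpn9.

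Changes after 1 h of DILP were small. Of the 40 genes, 29 had enough counts to be tested, namely the 27 subunits and the copies Rpt3R and Rpt6R. With DILP2, 1 of the 29 passed an adjusted p of 0.05 (edgeR's quasi-likelihood test, Benjamini-Hochberg adjustment over 8981 genes), namely Prosalpha5, which was higher. Over all genes tested, 10.9% passed in this comparison, and 5.33% passed as higher. With DILP5, 1 of the 29 passed, namely Prosbeta2, also higher, beside 13.1% of all genes and 6.28% as higher. Each is 3.45% of the 29. None of the 29 passed as lower, beside 5.59% of all genes with DILP2 and 6.78% with DILP5. At an unadjusted p under 0.05, 6 of the 29 were higher with DILP2 and 9 with DILP5, and none was lower, against 25.2% and 27.5% of all genes in either direction.

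Although few genes passed, their estimates were mostly above 0. The log2 fold change was above 0 for 27 of the 29 with DILP2 and for 27 of the 29 with DILP5, against 49.3% and 49.5% of all genes tested. The median log2 fold change of the 29 was 0.059 with DILP2 and 0.075 with DILP5, against -0.0023 and -0.0020 over all genes. These medians equal a 1.04-fold and a 1.05-fold level. Both comparisons used the same 3 control libraries, so they are not independent of each other. The 29 genes were measured in the same 9 libraries, so neither their signs nor the counts by library below are separate observations. Between replicates, the median log2 CPM of the 27 subunits had a pooled SD of 0.0552. With libraries scaled by total counts alone, the medians were 0.022 and 0.040 with all genes at -0.039 and -0.036, the estimates above 0 numbered 20 and 25, and no gene passed.

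Library by library, 10 of the 29 had all 3 DILP2 libraries above all 3 control libraries, and 11 of the 29 did so with DILP5, while 0 lay wholly below with either peptide. These are 34.5% and 37.9% of the 29, against 14.3% of all genes tested with DILP2 and 16.2% with DILP5. Another 16.1% and 17.4% of all genes lay wholly below. The intervals show how large a change these libraries left room for. Over the 27 subunits, the bounds of the 95% intervals ran from 0.921-fold to 1.21-fold with DILP2 and from 0.924-fold to 1.19-fold with DILP5.

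**Figure D2:**
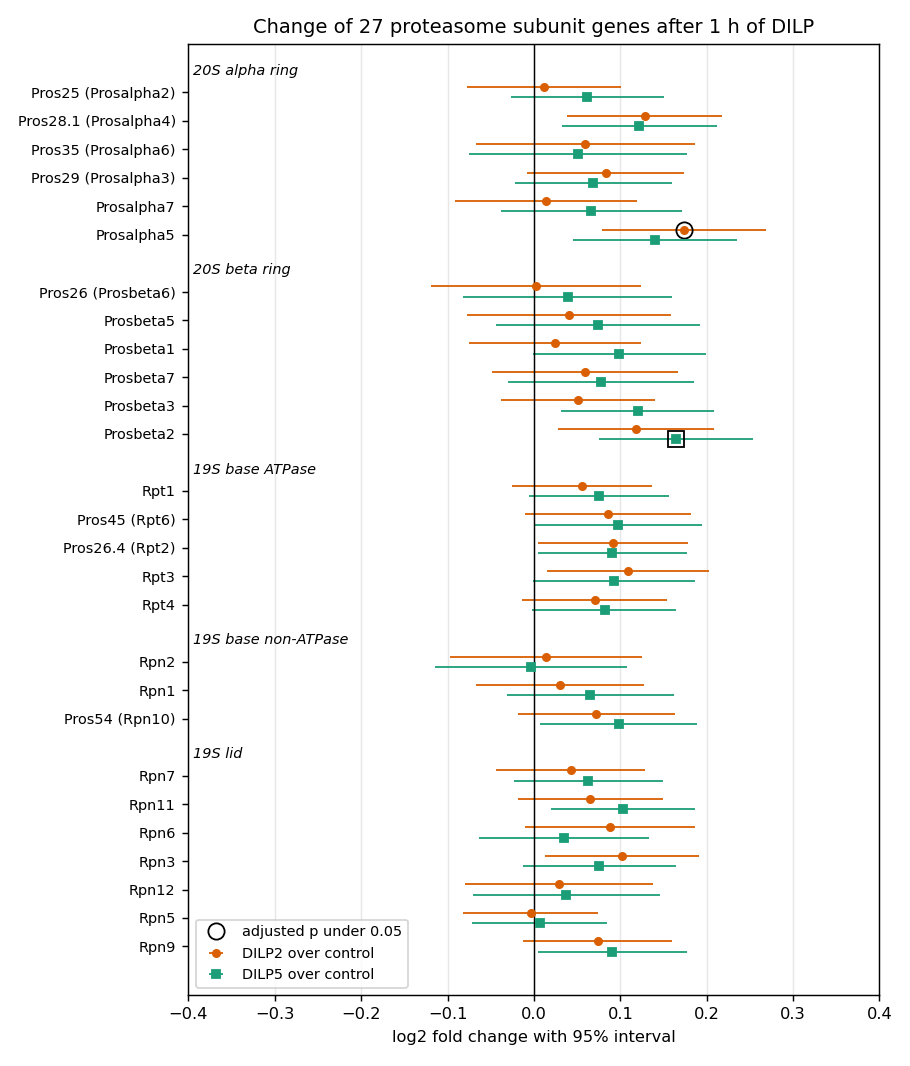
Log2 fold change over control of each of the 27 subunit genes with its 95% interval, with DILP2 as circles above DILP5 as squares, where a black outline marks an adjusted p under 0.05. Nearly all points lie right of 0, yet most intervals cross it, and only Prosalpha5 with DILP2 and Prosbeta2 with DILP5 are outlined.

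The alpha ring held the gene called with DILP2. Prosalpha5, the alpha5 subunit, had 134, 128 and 123 CPM with DILP2, 122, 126 and 128 CPM with DILP5 and 116, 115 and 109.8 CPM in control. Every DILP library was above every control library. The log2 fold change was 0.17 with DILP2 (SE 0.043, adjusted p = 0.026), which is 1.06-fold to 1.21-fold by its 95% interval. With DILP5 it was 0.14 (SE 0.043) and missed the threshold, at an adjusted p of 0.055. The DILP2 call was lost without control A, B or C or without DILP2 A or B, with an adjusted p of 0.107 at most. The DILP5 estimate passed with DESeq2 (adjusted p = 0.0321), with DESeq2's size factors (0.0489), with the replicate letters as a block (0.0225) and without DILP2 C (0.0409).

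At the lower end of the ring was Pros25, the alpha2 subunit, with 191, 196 and 204 CPM with DILP2, 206, 204 and 202 CPM with DILP5 and 189, 202 and 195 CPM in control. Its libraries overlapped in both comparisons, with log2 fold changes of 0.012 and 0.062 (SE 0.041 and 0.040, adjusted p = 0.907 and 0.361). Pros35, the alpha6 subunit, had 191, 171 and 184 CPM with DILP2, 193, 179.8 and 169.8 CPM with DILP5 and 173, 183 and 168 CPM in control. It varied most between replicates within the ring under DILP5, at 6.42%, and its log2 fold changes of 0.059 and 0.051 were close to their SE of 0.058.

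Pros28.1, the alpha4 subunit, was named after its values were seen. It had 269, 276 and 256 CPM with DILP2, 269.6, 269 and 259.7 CPM with DILP5 and 243, 251 and 239.8 CPM in control, with no overlap. Its log2 fold changes of 0.13 and 0.12 missed the threshold with either peptide (adjusted p = 0.0688 and 0.073). The other alpha genes, Pros29 and Prosalpha7, had estimates from 0.014 to 0.083.

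The beta ring held the gene called with DILP5. Prosbeta2, the catalytic subunit with trypsin-like activity, had 152, 141 and 149.9 CPM with DILP2, 154, 152 and 151 CPM with DILP5 and 136, 139.5 and 133 CPM in control. The DILP5 libraries lay close together and above every control, and those of DILP2 lay above the controls as well. Its log2 fold change was 0.16 with DILP5 (SE 0.041, adjusted p = 0.0223), or 1.05-fold to 1.19-fold. With DILP2 it was 0.12 (SE 0.041, adjusted p = 0.0916). The DILP5 call was lost without control A or C or without DILP5 A or B, with an adjusted p of 0.0918 at most, and without the 3 libraries lettered C (adjusted p = 0.0681), a fit chosen after the data were seen.

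The other catalytic subunits did not pass. Prosbeta1, which has caspase-like activity, had 114, 119 and 115 CPM with DILP2, 122, 120.3 and 123 CPM with DILP5 and 109.1, 121 and 111 CPM in control. Control B was thus above all DILP2 libraries. The log2 fold changes were 0.024 and 0.099 (SE 0.046 and 0.045, adjusted p = 0.798 and 0.185). Prosbeta5, with chymotrypsin-like activity, had 169, 163 and 186 CPM with DILP2, 181, 175 and 174.5 CPM with DILP5 and 159, 176 and 169 CPM in control. Its groups overlapped, and the log2 fold changes were 0.041 and 0.074 (SE 0.054 each, adjusted p = 0.698 and 0.413).

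Pros26, the beta6 subunit, had the smallest estimates of this ring. It had 156, 155 and 160.0 CPM with DILP2, 170.5, 159 and 154 CPM with DILP5 and 156, 169 and 146 CPM in control. Its control libraries spanned nearly all values of the DILP libraries, and the log2 fold changes were 0.0021 and 0.039 (SE 0.056 and 0.055, adjusted p = 0.989 and 0.699). Prosbeta3 and Prosbeta7, which have no catalytic site, had estimates from 0.051 to 0.12, with adjusted p-values from 0.0745 to 0.505.

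None of the 5 base ATPases passed, and all had estimates above 0 with both peptides. Rpt3 had 199, 203 and 196 CPM with DILP2, 187, 198 and 207 CPM with DILP5 and 186, 185.5 and 183 CPM in control. Its DILP libraries all lay above the controls, although the lowest of DILP5 did so by less than 1 CPM. The log2 fold changes were 0.11 and 0.093 (SE 0.043 each, adjusted p = 0.134 and 0.185). Pros45, the Rpt6 subunit, had 240.5, 241 and 234 CPM with DILP2, 236, 240.3 and 245 CPM with DILP5 and 213, 238 and 224 CPM in control. Control B again reached the DILP values. Its log2 fold changes were 0.086 and 0.098 (SE 0.044 each, adjusted p = 0.255 and 0.177).

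Rpt1 had the smallest estimates of the ATPases, 0.055 and 0.075. It had 268.5, 268.5 and 265.5 CPM with DILP2, 268.5, 268 and 277 CPM with DILP5 and 254, 266 and 252 CPM in control. The DILP5 libraries lay above the controls, and the lowest DILP2 library lay below control B. Neither comparison passed (adjusted p = 0.391 and 0.217). Pros26.4, the Rpt2 subunit, and Rpt4 had estimates from 0.070 to 0.091, and the DILP libraries of both genes lay above all controls.

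Of the base subunits that are not ATPases, Pros54, the ubiquitin receptor Rpn10, had 150.0, 142 and 152.5 CPM with DILP2, 147, 152 and 153.5 CPM with DILP5 and 139, 146 and 138 CPM in control. The DILP5 libraries lay above the controls, and DILP2 B did not. Its log2 fold changes were 0.072 and 0.098 (SE 0.042 and 0.041, adjusted p = 0.314 and 0.149). Rpn2, a large scaffold of the base, had 498, 502.5 and 547.5 CPM with DILP2, 493, 505 and 531 CPM with DILP5 and 510.4, 490.4 and 532 CPM in control. The groups overlapped throughout, with log2 fold changes of 0.014 and -0.0031 (SE 0.051 each, adjusted p = 0.911 and 0.978). Rpn1, the other large scaffold, had estimates of 0.030 and 0.065.

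None of the 7 lid genes passed. Rpn11, the deubiquitinase of the lid, had 158, 158 and 158 CPM with DILP2, 163, 157 and 166 CPM with DILP5 and 150.1, 155 and 147 CPM in control. All DILP libraries lay above all controls, and the log2 fold changes were 0.065 and 0.10 (SE 0.038 each, adjusted p = 0.319 and 0.101). Rpn3, a structural lid subunit, had 199, 196 and 204 CPM with DILP2, 193, 197 and 198 CPM with DILP5 and 182.5, 195 and 180.4 CPM in control. Only with DILP2 did all libraries exceed the controls, and the log2 fold changes were 0.10 and 0.075 (SE 0.041 and 0.040, adjusted p = 0.139 and 0.26).

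Rpn5 stood at the low end of the lid. It had 193, 190.5 and 187 CPM with DILP2, 195.5, 191 and 189 CPM with DILP5 and 188, 190.5 and 193 CPM in control. The 3 groups covered the same values, with log2 fold changes of -0.0039 and 0.0066 (SE 0.036 each, adjusted p = 0.966 and 0.932) and fold intervals of 0.945 to 1.05 and 0.952 to 1.06. Rpn6, Rpn7, Rpn9 and Rpn12 had estimates from 0.029 to 0.091, of which those of Rpn12 had the largest SE, at 0.050.

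By group, the median log2 fold change was 0.071 with DILP2 and 0.068 with DILP5 in the alpha ring, and 0.046 and 0.088 in the beta ring. It was 0.086 and 0.091 for the ATPases, 0.030 and 0.065 for the other base subunits, and 0.065 and 0.063 for the lid. The 12 genes of the 20S core and the 15 of the 19S particle had medians of 0.055 and 0.076 for the core and of 0.070 and 0.075 for the particle. The 29 genes were also shorter than most, with a median exonic length of 1393 bases against 2049 bases over all genes tested. With a trend on exonic length removed from the fold changes, the medians of the 29 were 0.041 with DILP2 and 0.045 with DILP5, and the DILP2 call was lost (Prosalpha5, adjusted p = 0.0952). The core medians were then 0.018 and 0.031, and those of the particle 0.061 and 0.069.

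Summed over the 27 subunits, the transcripts amounted to 5297, 5266 and 5375 CPM with DILP2, 5326, 5342 and 5397 CPM with DILP5, and 5009.7, 5231 and 5056 CPM in control. All 6 DILP libraries exceeded the highest control. The median log2 CPM of the same 27 genes did not separate the groups. Control B, at 7.457, lay above DILP2 A and B (7.455 and 7.411) and DILP5 B and C (7.452 and 7.448). The sum of the 12 core genes alone overlapped, since DILP2 B had 1933.5 CPM and control B 1947.4 CPM. The group means were 5312 ± 56.4 CPM with DILP2, 5355 ± 37.4 CPM with DILP5 and 5099 ± 117 CPM in control (SD, n = 3 libraries), which is 4.19% and 5.02% above control. The control mean rested partly on control B, the highest of the 3 controls for 22 of the 27 genes. Control B also had the fewest counts of the 9 libraries.

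The separation of the sums depended on scaling. As a plain share of all counts, the 27 subunits took from 0.526% to 0.527% with DILP2 and from 0.529% to 0.534% with DILP5. In control they took 0.51%, 0.538% and 0.507% in libraries A, B and C, so that control B was the highest of all 9 libraries. The means were then 1.54% and 2.51% above control, and the groups overlapped. Without control B, the median log2 fold changes of the 29 genes were 0.085 with DILP2 and 0.0997 with DILP5. With bulk RNA, a change in transcripts per cell cannot be told apart from a change in the total RNA of the cells.

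Among the 12 core and 15 particle genes of the naming rule, the balance of core to particle showed no such step. The sums leave out Prosalpha1 and CG17331 of the core and Tbp-1, Mov34, CG13349 and CG13779 of the particle. Prosalpha1 alone had 459.6 CPM in control on average, a level that its copy makes uncertain. The ratio of summed 20S to summed 19S CPM was from 0.579 to 0.585 with DILP2, from 0.572 to 0.608 with DILP5 and from 0.566 to 0.593 in control. The groups overlapped, and the spread within DILP5 alone, of SD 0.018, exceeded the differences between the means of 0.582, 0.59 and 0.578.

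**Figure D3:**
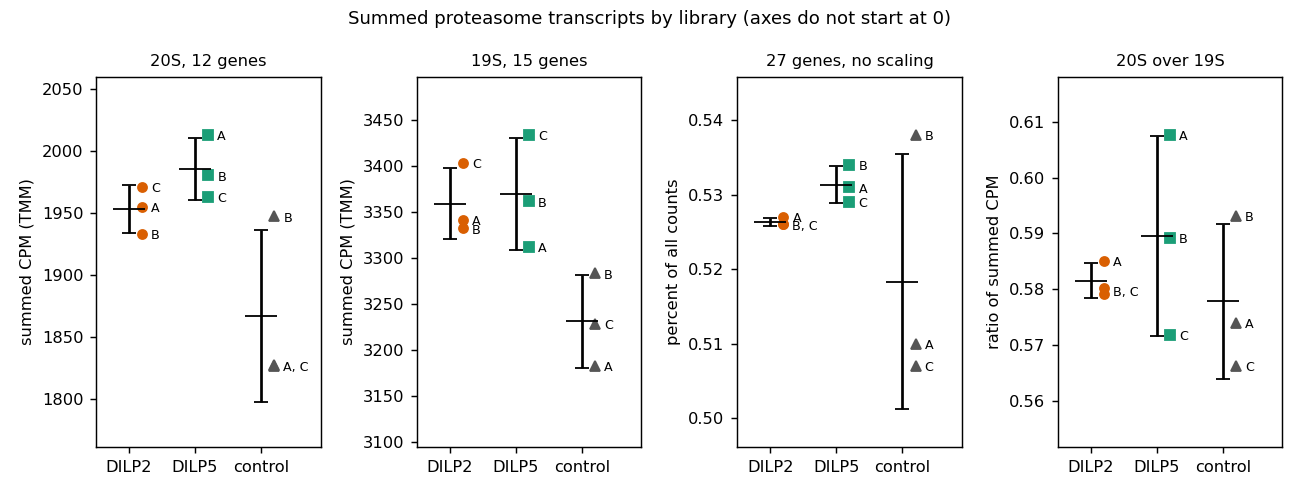
Summed transcripts in each library, with replicate letters, for the 12 core genes and the 15 particle genes in CPM, for all 27 as a percent of all counts without scaling, and as the ratio of core to particle, with bars for the mean and SD of 3 libraries (axes do not start at 0). With TMM scaling the particle sums of DILP2 and DILP5 lie above all controls, while the core sum of DILP2 B, at 1933.5 CPM, lies below control B, and as a share of counts control B, at 0.538%, lies highest of all.

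Compared directly, DILP5 and DILP2 gave 0 called genes among the 29, as among all 8981 genes tested (0.0% by edgeR's quasi-likelihood test, and 0 of these genes by DESeq2). At an unadjusted p under 0.05, 0 of the 29 passed, against 2.32% of all genes. For DILP5 over DILP2, the median of the 29 log2 fold changes was 0.017, and the estimates of the 27 subunits ran from -0.053 for Rpn6 to 0.075 for Prosbeta1. Their 95% intervals ran from 0.90-fold to 1.13-fold, so a difference beyond these bounds lay outside the interval of each of the 27. That no gene passed does not show that the 2 peptides act alike on smaller differences.

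No beta or alpha gene passed between the peptides. The 6 beta genes of the naming rule had an estimate above 0 for DILP5 over DILP2, against 2 of the 6 alpha genes and 50.0% of all genes tested. The seventh beta gene, CG17331 (Prosbeta4), ran the other way, at -0.12 (SE 0.084, fold interval 0.809 to 1.04), and without the 3 libraries lettered C, a fit chosen after the data were seen, 5 of the 6 were above 0. Prosbeta1 and Prosbeta3 had all DILP5 libraries above all DILP2 libraries, as did 3.05% of all genes. Their log2 fold changes were 0.075 and 0.069 (SE 0.045 and 0.040). The summed 6 beta genes came to 923, 911 and 905 CPM with DILP5 and 881, 874 and 902 CPM with DILP2, while the summed alpha genes came to 1090.4, 1069.7 and 1058 CPM with DILP5 and 1074, 1059.8 and 1069.5 CPM with DILP2. The ratio of alpha to beta was from 1.17 to 1.18 with DILP5, from 1.19 to 1.22 with DILP2 and from 1.16 to 1.20 in control, so the control range reached both peptides. These ring sums leave out Prosalpha1 and CG17331, were examined after the values were seen and were given no test.

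For the mean of the DILP2 and DILP5 changes over control, taken from the same model, 3 of the 29 genes passed. All were of the core and all higher, beside 17.3% of all genes tested (8.02% as higher and 9.25% as lower). They were Prosalpha5, with a log2 fold change of 0.16 (SE 0.038, adjusted p = 0.0148), Prosbeta2, with 0.14 (SE 0.036, adjusted p = 0.019), and Pros28.1, with 0.12 (SE 0.036, adjusted p = 0.0325). No gene of the 19S particle passed in this fit, and the smallest adjusted p there was 0.0882, for Rpt3. In other fits some did, namely Pros26.4 and Rpt3 with the replicate letters as a block. Pros45 passed without control B, and Rpt3 without DILP5 A. With libraries scaled by total counts alone 0 of the 29 passed. Without control C, 0 passed as well, and without control A only Prosalpha5 did.

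**Figure D4:**
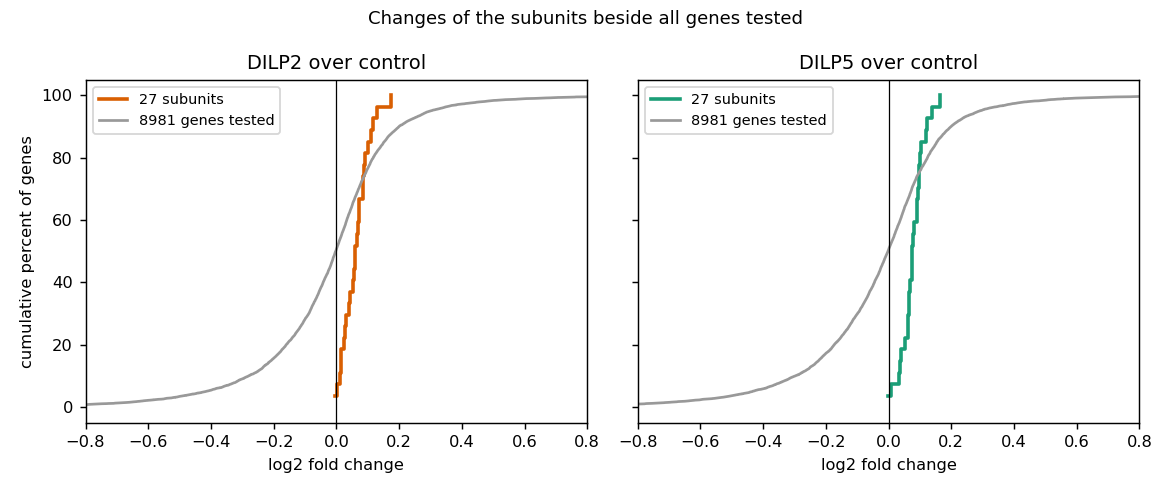
Cumulative percent of genes against log2 fold change over control, for the 27 subunits (coloured steps) and for the 8981 genes tested (grey), with DILP2 at left and DILP5 at right (changes beyond 0.8 in either direction are not drawn). The subunits rise in a narrow band between -0.0039 and 0.17 with DILP2 and between -0.0031 and 0.16 with DILP5, and 26 of the 27 in each panel lie right of 0.

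The duplicate copies were mostly silent. In Drosophila, several copies of proteasome genes are known from the testis, where they replace the common subunits in developing sperm. Here 11 of the 13 copies had at most 4 counts in any library, and together they had 54 counts among 309672640. Pros28.1A, Prosbeta4R1, Prosbeta4R2 and Prosbeta5R had 0 counts in all 9 libraries, which allows up to 0.00969 CPM each, for counting error only. Prosbeta2R2 was the highest of the 11 and had 23 counts, against 45061 counts of Prosbeta2. Prosalpha6T had 13 counts, against 55409 counts of Pros35.

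Rpt6R, a copy of the ATPase Rpt6, was expressed. It had 34.4, 31.5 and 28.5 CPM with DILP2, 29.7, 33.2 and 32.1 CPM with DILP5 and 30.1, 31.6 and 30.1 CPM in control. The groups overlapped, with log2 fold changes of 0.039 and 0.050 (SE 0.072 and 0.071, adjusted p = 0.791 and 0.696). Of the counts of Rpt6R and Pros45 together, Rpt6R made up from 10.8% to 12.5% with DILP2, from 11.2% to 12.1% with DILP5 and from 11.7% to 12.4% in control. Its level per kb stood at percentile 59.8 of the genes tested, below all 27 subunits.

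Rpt3R, a copy of Rpt3, was detected at a low level, at percentile 21.5. It had 2.99, 2.43 and 2.13 CPM with DILP2, 2.86, 2.78 and 2.41 CPM with DILP5 and 3.18, 3.5 and 2.39 CPM in control, or from 73 to 114 counts. Its log2 fold changes were -0.26 and -0.17 (SE 0.175 and 0.171, adjusted p = 0.393 and 0.574), with fold intervals of 0.639 to 1.09 and 0.687 to 1.16. It made up 1.25 ± 0.21% of the counts of Rpt3R and Rpt3 with DILP2, 1.35 ± 0.18% with DILP5 and 1.61 ± 0.288% in control (SD, n = 3 libraries). How the counting treated reads that match both a copy and its subunit was not stated, so the shares are uncertain.

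**Figure D5:**
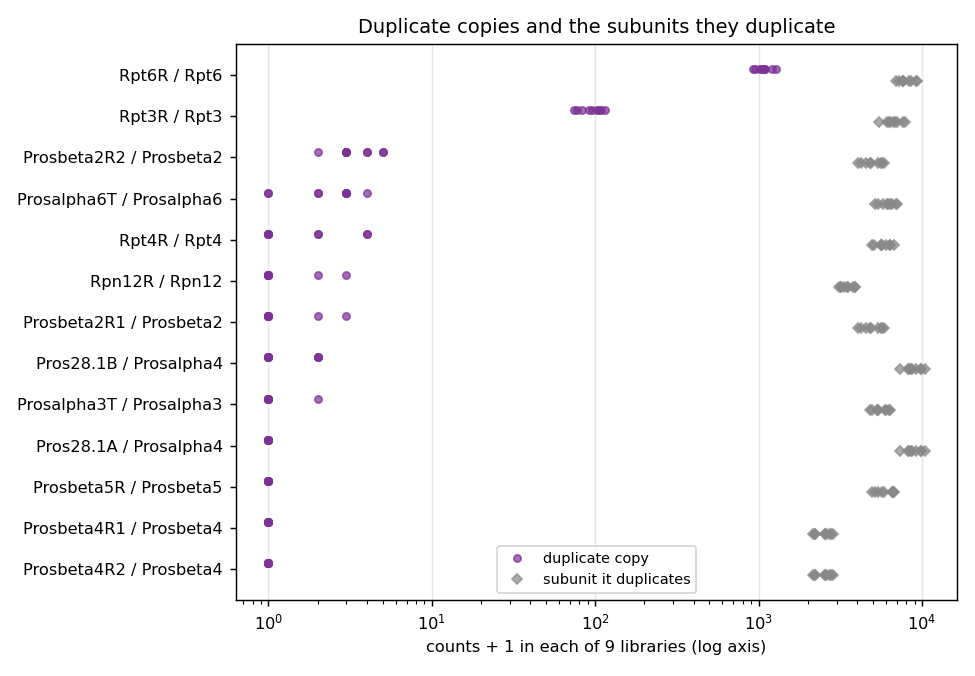
Counts plus 1 in each of the 9 libraries on a log axis, for each duplicate copy (circles) and for the subunit it duplicates (diamonds). Rpt6R reaches 1279 counts and Rpt3R 114 counts, while the other 11 copies have at most 4, far below every subunit.

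Several subunits carry other names in the table and were examined as a separate list. They were Prosalpha1, which the table carries without a name, CG17331 (Prosbeta4), Tbp-1 (Rpt5), Mov34 (Rpn8), CG13349 (Rpn13) and CG13779 (Sem1). None of these 6 passed with either peptide, beside 10.9% of all genes tested with DILP2 and 13.1% with DILP5. Their median log2 fold changes were 0.094 with DILP2 and 0.082 with DILP5. The 6 estimates were above 0 in both comparisons, against 49.3% and 49.5% of all genes tested. CG17331 varied most, with 87.7, 73.3 and 73.9 CPM with DILP2, 74.8, 73.9 and 67.1 CPM with DILP5 and 70.8, 76.3 and 62.2 CPM in control, and overlapped throughout. The counts of Prosalpha1 exceeded those of its copy CG30382 (Prosalpha1R) by only 0.131% to 0.327% in the 9 libraries, so these rows may hold the same reads and their levels are uncertain. Of the other copies under other names, CG6789 and CG31742 were near 0.

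Factors that assemble or modulate the proteasome did not pass either, 0 of 7 with each peptide. Over all genes tested, 10.9% passed with DILP2 and 13.1% with DILP5. The median log2 fold changes were 0.092 with DILP2 and 0.063 with DILP5. REG, the activator that can replace the 19S particle, had estimates of 0.11 and 0.12, and Pomp, the maturation factor of the core, had 0.037 and 0.028. CG8858, the fly relative of the yeast proteasome adaptor Ecm29, ran the other way with DILP5, at -0.15 (SE 0.056, adjusted p = 0.0967). Its DILP5 libraries all lay below the controls, as they did for 17.4% of all genes tested. It passed as lower in 3 of 17 other fits. These were total counts alone (-0.19, adjusted p = 0.0398), the replicate letters as a block (adjusted p = 0.0155) and the fit without DILP5 C (adjusted p = 0.0448). With the length trend removed, its estimate was -0.091 (adjusted p = 0.256).

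Of 5 regulators of proteasome genes, 1 passed with each peptide, beside 10.9% of all genes tested with DILP2 and 13.1% with DILP5. Keap1, which in flies binds and restrains the product of cnc, had 25.5, 28.1 and 25.6 CPM with DILP2, 23.9, 26.8 and 26.3 CPM with DILP5 and 21.7, 20.8 and 22.6 CPM in control. All DILP libraries lay above all controls, as they did for 14.3% of all genes tested with DILP2 and 16.2% with DILP5. Keap1 rose by a log2 fold change of 0.28 with DILP2 (SE 0.066, adjusted p = 0.0208) and of 0.24 with DILP5 (SE 0.066, adjusted p = 0.0328). The DILP2 call was lost without control A, control B or DILP2 B (adjusted p of 0.0752 at most). The DILP5 call was lost when any 1 control was left out, without DILP5 B or C, without the 3 libraries lettered C and with total counts alone (adjusted p of 0.123 at most). The factor gene cnc itself had estimates of -0.016 and -0.060 (adjusted p = 0.905 and 0.521).

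Of 10 genes for ubiquitin supply and delivery, 1 passed with DILP2 and 2 with DILP5, all higher. Over all genes tested, 10.9% passed with DILP2 (5.33% as higher) and 13.1% with DILP5 (6.28% as higher). Ubi-p63E, which encodes polyubiquitin, had 8987, 8791 and 8233 CPM with DILP2, 7842, 8897 and 9019.9 CPM with DILP5 and 7218, 7145 and 7532 CPM in control. Its libraries did not overlap with control, and it rose by 0.25 and 0.23 on the log2 scale (SE 0.062 each, adjusted p = 0.026 and 0.0288). Both calls were lost when any 1 control was left out, the DILP2 call also without DILP2 A or B, and the DILP5 call also without DILP5 B or C (adjusted p of 0.109 at most). Ubi-p5E, the other polyubiquitin gene, rose by 0.18 with DILP5 (SE 0.051, adjusted p = 0.0357) and had an estimate of 0.15 with DILP2 (adjusted p = 0.0879). The DILP5 call was lost when any 1 control was left out and without DILP5 B or C (adjusted p of 0.111 at most), and the DILP2 estimate passed in 2 of 17 other fits. The ATPase TER94, which extracts ubiquitin-tagged proteins, had estimates of 0.082 and 0.024, and Rad23, a shuttle factor, had -0.14 and -0.13. Their adjusted p-values were from 0.289 to 0.785.

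Genes of other large complexes are given for comparison. Of 84 cytosolic ribosomal protein genes tested, 13 passed with DILP2 and 8 with DILP5, all higher, with medians of 0.13 and 0.14, beside 5.33% and 6.28% of all genes as higher. With total counts alone 1 passed with each, and with the length trend removed 5 and 2 of the 79 with a length did, with medians of 0.064 and 0.069. Of 23 genes of the vacuolar ATPase, 1 passed with DILP2 and 2 with DILP5, with medians of 0.074 and 0.097. With total counts alone 0 and 1 did, and with the length trend removed 1 and 1 of the 18 with a length. The differences between these lists were not tested.

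Some subunits overlap a gene on the opposite strand, and whether the counting used strand was not stated. This held for 10 of the 27, with at most 13% of the exonic length, for Pros45 and CG1801. Prosbeta2 overlaps Reck in 7.93% of its length. Reck had 139, 137 and 131 CPM with DILP2, with DILP5 and in control on average, and log2 fold changes of 0.080 and 0.065 (adjusted p = 0.38 and 0.457). Prosbeta3 overlaps CG11980 in 2.08% of its length, and CG11980 rose by 0.20 and 0.22 on the log2 scale (adjusted p = 0.0331 and 0.0181). Prosbeta1 overlaps CG8389 in 1.29% of its length, and CG8389 fell by 0.21 and 0.25 (adjusted p = 0.0465 and 0.0194). The part of these reads in the values of the subunits was not tested. Prosalpha5 and Pros28.1 overlap no gene.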

How the data were processed

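The authors mapped single-end reads to the dm3 genome with Tophat and Bowtie and deposited raw counts per gene from easyRNASeq, without normalization. How strand and multiply matching reads were handled is not given in the sources used here. The counts of the 9 libraries were fitted in 1 model by edgeR 4.0.16 (R 4.3.3): default filter on low counts (8981 of 13937 genes), TMM, no block, quasi-likelihood test, Benjamini-Hochberg adjustment over all genes tested, threshold 0.05. SEs are the absolute log2 fold change over the square root of F. The test was checked on simulated counts, and that check does not show that changes as small as those of most subunits here would pass. The members and lists were chosen with earlier results of these data known. Per-library values are given for called genes, the highest and lowest estimates of each role, the catalytic subunits and the duplicates. Exonic lengths, overlaps and current symbols came from BDGP6 release 115, with 13389 identifiers found. It is not the authors' build, and no coordinates are given. Alternatives were DESeq2 1.42.0 and its size factors, total counts alone, no filter, each comparison on its own libraries, a replicate block, a length trend removed, a threshold of 0.01 and each library left out.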

Additional observations from a re-analysis of the deposited data

How the results depend on the processing

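The counts of called genes rested on small margins. The shares of all genes called in the other fits are not given here, so a higher or lower count has no background beside it. The number called with DILP2, 1 of 29, was 2 with DESeq2, 0 with total counts alone, 0 with the length trend removed, 0 at an adjusted p under 0.01 and from 0 to 2 when a library was left out. The number called with DILP5, also 1, was 3 with DESeq2, 2 with DESeq2's size factors, 0 with total counts alone, 0 at an adjusted p under 0.01, 0 without the 3 libraries lettered C (chosen after the data were seen) and from 0 to 2 when a library was left out. For the mean of both peptides, 3 genes became 0 with total counts alone, 1 (Prosbeta2) with the length trend removed, 0 at an adjusted p under 0.01 and from 0 to 4 when a library was left out.

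The replicate letters pair nothing by the labels, and the model had no block. Deviations of same-lettered libraries correlated at 0.286 to 0.348 for C and at 0.142 to 0.163 for A. For B they correlated at -0.021 and -0.0354 with control, and at 0.0967 between the peptides. With the letters as a replicate block, 3 genes were called with DILP2, 4 with DILP5, 5 in the mean of both and 0 between the peptides. Not every library correlated best with its own letter, since control A correlated at 0.189 with DILP5 B and at 0.163 with DILP5 A. In the fits run, none of these 29 genes was called lower or called between the peptides. The median log2 fold change of the 29 stayed between 0.022 and 0.085 with DILP2, between 0.040 and 0.0997 with DILP5 and between 0.009 and 0.022 for DILP5 over DILP2. Counts were lowest for Rpt3R and the 11 copies not tested, where depth set the limit.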
